A study of Mus musculus with 9 samples.

Results

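The transcripts described here encode factors of NF-kB, a family of dimeric transcription factors of inflammation, together with proteins that the same factors induce and that restrain or carry out the response. The 10 genes were listed by name as Nfkb1, Nfkb2, Rel, Relb, Nfkbia, Birc3, Tnfaip2, Tnfaip3, Bcl3 and Icam1, not by a threshold on measured values, although earlier results of these data were known when the list was made. Of these, 9 had a row with a single gene symbol in the array annotation, out of 22180 genes measured, and Nfkb1 was not analysed here. Each of the 9 had exactly 1 such row. The tissue was mouse kidney, and total RNA was measured on 9 whole-transcript arrays, 3 per group. In the norUDCA-fed CBDL group, mice had the common bile duct ligated for 3 weeks and had been fed norursodeoxycholic acid, a bile acid whose side chain is 1 carbon shorter than that of ursodeoxycholic acid, over 5 days beforehand. The CBDL group had the same 3 weeks of ligation without that feeding, and the sham group had a sham operation of the same duration. The sources used here do not give strain, sex or age, and a sham group fed norUDCA was not analysed here.

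In resting cells, NF-kB dimers are held in the cytoplasm by inhibitors of the IkB family, of which the product of Nfkbia is the best studied. Receptors for TNF, interleukin 1 and microbial products activate a kinase complex that marks IkB for destruction, and the freed dimers, built from proteins such as Rel, enter the nucleus. A slower, non-canonical branch processes the Nfkb2 product p100 to p52, which pairs with RelB. Dimers switch on their own inhibitors, so that transcripts such as Nfkbia and Tnfaip3 serve as readouts of recent activity as well as brakes. In kidney, the pathway is known from tubular injury and from infiltrating leukocytes.

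Dimers bind kappaB sites, and 300-base promoter windows, from 250 bases before to 50 after a transcription start, were read from RefSeq (GRCm38.p6) for 8 of the 9 measured genes. Relb had no entry. The windows of 4 feedback and factor genes are printed as examples of the matches, chosen among the 6 genes that held one. Capitals mark matches to the general kappaB consensus on either strand, a 10-base motif with degenerate positions that is named here and not spelled.
Nfkbia, chr12:55492598-55492897 on the minus strand: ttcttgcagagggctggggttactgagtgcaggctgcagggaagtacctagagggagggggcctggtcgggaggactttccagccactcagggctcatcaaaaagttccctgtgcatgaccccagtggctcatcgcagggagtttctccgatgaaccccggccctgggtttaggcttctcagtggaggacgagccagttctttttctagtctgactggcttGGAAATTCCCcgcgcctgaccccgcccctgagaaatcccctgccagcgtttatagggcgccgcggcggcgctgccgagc
Nfkb2, start 2, chr19:46305445-46305744 on the plus strand: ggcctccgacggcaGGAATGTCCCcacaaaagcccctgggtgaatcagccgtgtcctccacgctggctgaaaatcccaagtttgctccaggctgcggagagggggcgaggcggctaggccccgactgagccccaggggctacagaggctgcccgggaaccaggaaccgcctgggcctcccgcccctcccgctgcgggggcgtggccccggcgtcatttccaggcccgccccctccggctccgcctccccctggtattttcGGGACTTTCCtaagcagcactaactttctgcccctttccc
Rel, chr11:23770920-23771219 on the minus strand: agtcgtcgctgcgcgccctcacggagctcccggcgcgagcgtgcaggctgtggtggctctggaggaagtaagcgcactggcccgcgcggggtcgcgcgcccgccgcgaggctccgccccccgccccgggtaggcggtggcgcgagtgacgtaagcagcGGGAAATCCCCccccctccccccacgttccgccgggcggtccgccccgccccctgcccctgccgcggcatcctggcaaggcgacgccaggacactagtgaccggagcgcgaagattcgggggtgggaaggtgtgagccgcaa
Tnfaip3, start 1, chr10:19015361-19015660 on the minus strand: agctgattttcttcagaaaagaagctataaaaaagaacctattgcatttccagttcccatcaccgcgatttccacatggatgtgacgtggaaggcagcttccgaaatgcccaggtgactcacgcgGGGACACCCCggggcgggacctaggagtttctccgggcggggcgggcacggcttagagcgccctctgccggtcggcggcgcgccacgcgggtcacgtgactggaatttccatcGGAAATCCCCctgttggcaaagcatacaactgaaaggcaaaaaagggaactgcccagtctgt

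Nfkbia, Nfkb2, Rel, Tnfaip2, Tnfaip3 and Bcl3 held such a match, which is 6 of 8 genes with a window, whereas 9.55% of the 27025 genes in the promoter table held one. The genes were listed as NF-kB factors and targets, and Nfkb2 and Tnfaip3 had more than 1 window. Of the lists described below, 12 of 29 other target genes held a match. So did 6 of 15 further IkB proteins and negative regulators and 3 of 8 endothelial markers. The counts were 4 of 19 signalling genes, 4 of 17 receptors and ligands, 2 of 15 myeloid and 2 of 11 neutrophil markers. For lymphocyte and kidney epithelial markers they were 0 of 9 and 0 of 11. Each site printed next was counted as exact letters on either strand. Any exact string of 10 bases is expected in few 300-base windows, so these shares do not set the sites apart. The site in Nfkbia reads GGGAATTTCC on the reverse strand at positions -29 to -20 from the start, and 0.107% of all genes held it. Nfkb2 carried GGGACTTTCC, held by 0.174% of all genes, at positions 11 to 20 of its start 2. The windows of start 2 and start 3 overlap, so both contain that 1 site. In Rel, GGGAAATCCC, held by 0.111% of all genes, overlapped GGGGATTTCC on the other strand, together at positions -92 to -82. Tnfaip3 held the same letters, GGGGATTTCC, at positions -12 to -3 of start 1 on the reverse strand, and 0.115% of all genes held them. No match lay in the windows of Birc3 and Icam1, which says only that no 10 bases of these 300 fit the full consensus. The Icam1 window holds tggaaattcc, which misses the consensus at its first base only. The same holds for aggactttcc in the Nfkbia window and tggaatttcc in the window of Tnfaip3 start 1. Near matches were not searched in any window, so these strings do not set Icam1 apart. A match is a string of letters and not a measured binding site, since no binding was assayed.

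**Figure D1:**
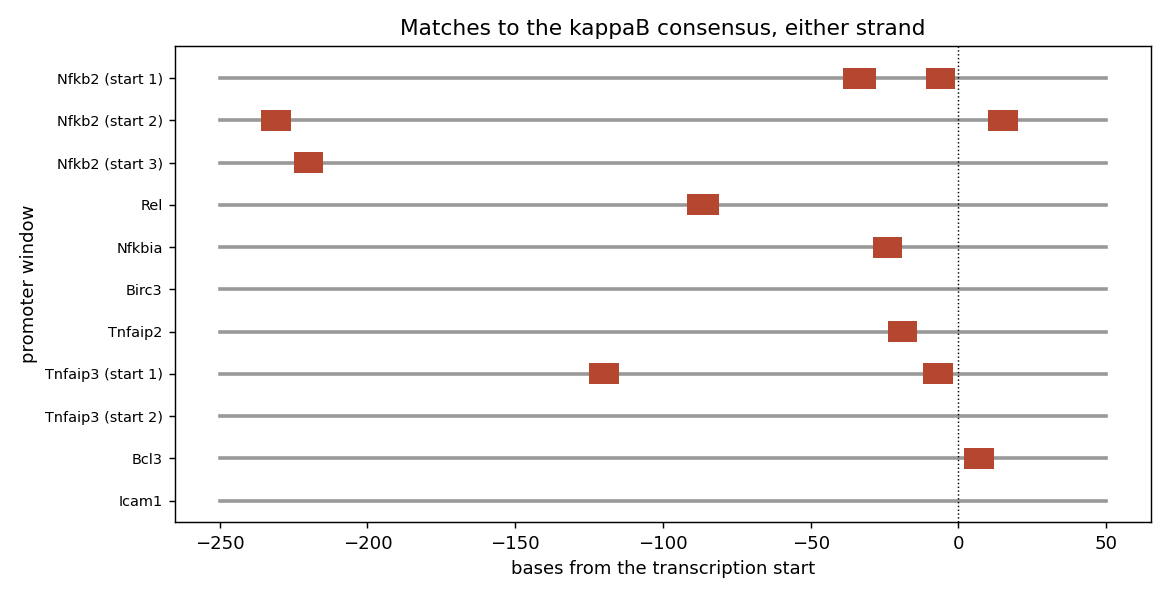
Positions of kappaB matches in the promoter windows of 8 genes, with bases from the transcription start on the horizontal axis and 1 line for each annotated start. Red bars are matches to the consensus on either strand; Birc3, Icam1 and the second start of Tnfaip3 have none.

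The values are log2 signals after robust multi-array averaging (RMA), so a difference of 1 is a 2-fold difference. A gene is said to have risen or fallen when its Benjamini-Hochberg adjusted p over all 22180 genes was under 0.05 in limma, a linear model that shares information on spread between genes. With 3 arrays per group the exact two-sided permutation test of a single gene cannot go below 0.1, so calls rest on limma. Precision is limited by the number of arrays (median standard error of a difference 0.14). Because no label tells how replicates were obtained, p-values reflect the spread among these samples alone, which may be technical. Array medians over all rows lay between 5.70 and 5.79. Over the 22180 genes measured, they lay between 6.24 (sham_160) and 6.43 (CBDL_165). Those of the 3 CBDL arrays (6.39, 6.43 and 6.40) were above those of all other arrays (up to 6.38). The second principal component, with 13% of the variance, placed sham_159 at -34.5 and CBDL_165 at -22.9, while the remaining 7 were at 3.42 to 12. Counts are therefore also given without both of these arrays. The mean signal over 13 markers of kidney epithelium was high on all arrays. It was 10.6 to 10.76 in norUDCA-fed CBDL, 9.55 to 10.28 in CBDL and 10.66 to 10.77 in sham. Not every marker was high, since Pvalb averaged 6.20 and Nphs1 7.38 over the 9 arrays. In a bulk tissue sample, fewer cells of a type and less RNA per cell cannot be told apart.

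After ligation, each of the 9 measured genes rose, by 0.68 to 1.12 on the log2 scale, or 1.60- to 2.18-fold. Across all genes, 10.3% were called higher and 11.5% lower in this comparison. The CBDL arrays lay wholly above the sham arrays for 8 of the 9, as for 15.6% of all genes. In norUDCA-fed CBDL, all 9 means lay below those of CBDL, by 0.26 to 0.58, and above those of sham. The difference from CBDL passed the test for Relb and Tnfaip3, and the difference from sham passed for Rel and Nfkbia. The median difference of the 9 genes was 0.81 in CBDL against sham, where that of all genes was -0.06, and -0.41 in norUDCA-fed CBDL against CBDL, where that of all genes was 0.00 to 2 decimals (-0.003362).

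**Figure D2:**
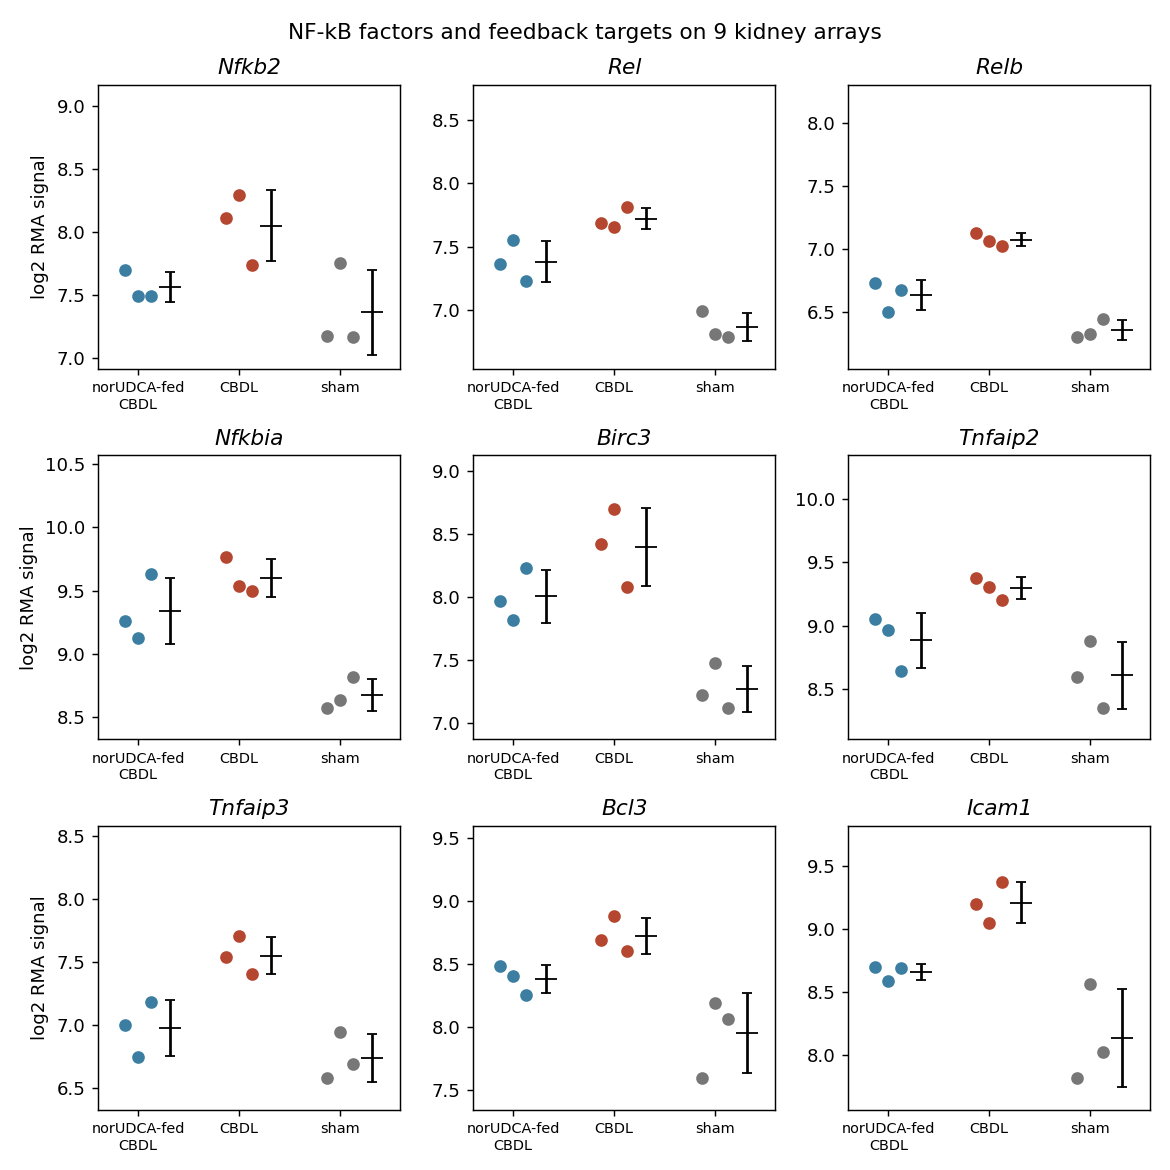
Log2 RMA signal of each gene on the 9 arrays, by group. Points are arrays, and the bar beside them is the group mean with its SD (n = 3); every panel spans the same range of the log2 scale. The CBDL mean is the highest of the 3 for each gene, and sham_159 is the highest sham array for 6 of 9 genes.

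Among the subunits, Rel encodes c-Rel, a transactivating factor of lymphoid and myeloid cells. Its signal was 7.36, 7.55 and 7.22 in norUDCA-fed CBDL, 7.69, 7.66 and 7.81 in CBDL, and 6.99, 6.81 and 6.78 in sham. The groups did not overlap, with norUDCA-fed CBDL in between. Rel rose 1.81-fold in CBDL against sham (difference 0.86, SE 0.11, adjusted p = 0.000551). It also rose 1.43-fold in norUDCA-fed CBDL against sham (difference 0.52, SE 0.11, adjusted p = 0.0401), while the difference of -0.34 from CBDL did not pass (SE 0.11, adjusted p = 0.117).

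Relb encodes the partner of p52 in the non-canonical branch. Its signal was 6.73, 6.50 and 6.67 in norUDCA-fed CBDL, 7.13, 7.06 and 7.02 in CBDL, and 6.30, 6.32 and 6.44 in sham. The 3 groups were again separate, and the CBDL arrays lay closest to each other of the 3 groups. Relb rose 1.64-fold in CBDL against sham (difference 0.72, SE 0.10, adjusted p = 0.000678) and fell in norUDCA-fed CBDL against CBDL (difference -0.44, SE 0.10, adjusted p = 0.029). The difference of 0.28 between norUDCA-fed CBDL and sham did not pass (adjusted p = 0.188).

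Nfkb2, which encodes p100, had signals of 7.70, 7.49 and 7.49 in norUDCA-fed CBDL, 8.11, 8.29 and 7.74 in CBDL, and 7.17, 7.75 and 7.16 in sham. It was the gene whose CBDL and sham arrays overlapped, since sham_159 lay slightly above CBDL_170. Nfkb2 rose 1.60-fold in CBDL against sham (difference 0.68, SE 0.19, adjusted p = 0.0262), and neither comparison of norUDCA-fed CBDL passed (-0.49 against CBDL, adjusted p = 0.177, and 0.20 against sham, adjusted p = 0.651). The call of Nfkb2 in CBDL ended without CBDL_164 (adjusted p = 0.0808), CBDL_165 (0.0924), sham_158 (0.0897) or sham_160 (0.0903), so that 8 of the 9 genes rose in each of those fits. The other 8 kept their call in CBDL without any 1 array, and without sham_159 and CBDL_165 together all 9 rose.

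Among the brakes, Nfkbia encodes IkB-alpha, which pulls dimers out of the nucleus. Its signal was 9.26, 9.12 and 9.63 in norUDCA-fed CBDL, 9.77, 9.53 and 9.49 in CBDL, and 8.57, 8.63 and 8.81 in sham. The 2 ligated groups overlapped, and both lay above sham. Nfkbia rose 1.90-fold in CBDL against sham (difference 0.93, SE 0.14, adjusted p = 0.00137) and 1.59-fold in norUDCA-fed CBDL against sham (difference 0.67, SE 0.14, adjusted p = 0.0395). Its difference of -0.26 from CBDL had a 95% interval of -0.58 to 0.06 (adjusted p = 0.389).

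Tnfaip3 encodes A20, a ubiquitin-editing enzyme that shuts off signalling from TNF and Toll-like receptors. Its signal was 7.003, 6.75 and 7.18 in norUDCA-fed CBDL, 7.54, 7.71 and 7.41 in CBDL, and 6.58, 6.95 and 6.69 in sham. All CBDL arrays lay above all others, and norUDCA-fed CBDL overlapped sham. Tnfaip3 rose 1.76-fold in CBDL against sham (difference 0.81, SE 0.14, adjusted p = 0.00295) and fell in norUDCA-fed CBDL against CBDL (difference -0.58, SE 0.14, adjusted p = 0.0443). The difference of 0.24 between norUDCA-fed CBDL and sham did not pass (adjusted p = 0.456).

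Bcl3 is an atypical, nuclear IkB protein that binds p50 and p52 homodimers. Its signal was 8.48, 8.41 and 8.26 in norUDCA-fed CBDL, 8.69, 8.88 and 8.60 in CBDL, and 7.59, 8.19 and 8.07 in sham. The groups did not overlap, although sham_158 lay well below the other sham arrays. Bcl3 rose 1.71-fold in CBDL against sham (difference 0.77, SE 0.16, adjusted p = 0.0061). Its differences of -0.34 between norUDCA-fed CBDL and CBDL (adjusted p = 0.276) and 0.43 between norUDCA-fed CBDL and sham (adjusted p = 0.207) did not pass.

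Birc3 encodes cIAP2, a ubiquitin ligase at the TNF receptor that also limits cell death. Its signal was 7.97, 7.82 and 8.23 in norUDCA-fed CBDL, 8.42, 8.70 and 8.08 in CBDL, and 7.23, 7.48 and 7.12 in sham. The 2 ligated groups overlapped and both lay above sham. Birc3 had the largest increase of the 9 in CBDL against sham, 2.18-fold (difference 1.12, SE 0.17, adjusted p = 0.00127). In norUDCA-fed CBDL it differed from sham by 0.73 (SE 0.17), just short of the threshold (adjusted p = 0.0552), and from CBDL by -0.39 (adjusted p = 0.25). Birc2, the neighbouring paralog that encodes cIAP1, rose by 0.58 in CBDL (adjusted p = 0.0112), and whether the probes of 1 gene also read the other was not tested.

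Among the effector targets, Icam1 encodes an adhesion molecule to which leukocyte integrins bind. Its signal was 8.70, 8.59 and 8.69 in norUDCA-fed CBDL, 9.20, 9.05 and 9.37 in CBDL, and 7.82, 8.57 and 8.03 in sham. The groups did not overlap, but sham_159 lay within 0.1 of the lowest norUDCA-fed CBDL array. Icam1 rose 2.10-fold in CBDL against sham (difference 1.07, SE 0.18, adjusted p = 0.00187). Its differences of -0.55 between norUDCA-fed CBDL and CBDL (SE 0.18, adjusted p = 0.106) and 0.52 between norUDCA-fed CBDL and sham (SE 0.18, adjusted p = 0.172) did not pass. Without sham_159 both passed (adjusted p = 0.0255 and 0.0268, with a difference from sham of 0.74).

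Tnfaip2, first found as a transcript induced by TNF in endothelial cells, had signals of 9.05, 8.96 and 8.64 in norUDCA-fed CBDL, 9.38, 9.30 and 9.20 in CBDL, and 8.59, 8.88 and 8.35 in sham. CBDL lay above both other groups, which overlapped. Tnfaip2 rose 1.61-fold in CBDL against sham (difference 0.69, SE 0.15, adjusted p = 0.00947). The differences of -0.41 between norUDCA-fed CBDL and CBDL (adjusted p = 0.162) and 0.28 between norUDCA-fed CBDL and sham (adjusted p = 0.407) did not pass.

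**Figure D3:**
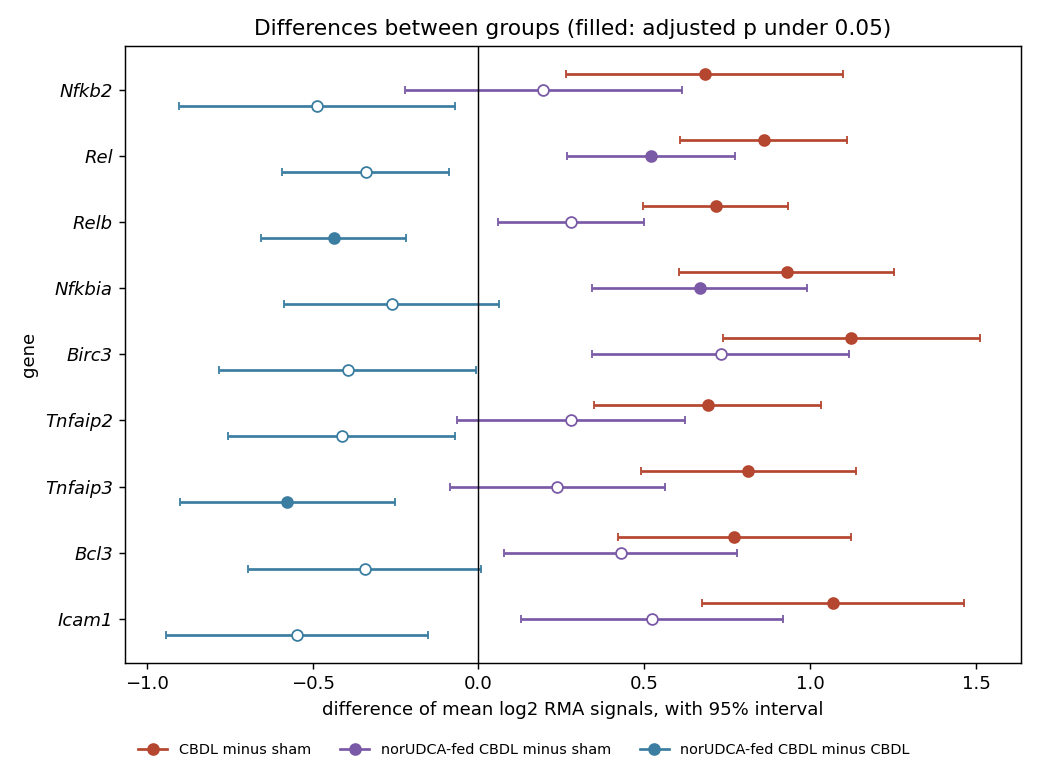
Differences of group means on the log2 scale for the 9 genes, with 95% intervals from the limma fit; filled points passed the threshold. All 9 differences of CBDL minus sham are filled and lie between 0.68 and 1.12, and the differences of norUDCA-fed CBDL minus CBDL lie between -0.58 and -0.26 with 2 filled.

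For each of the 9 genes the order of means was CBDL, norUDCA-fed CBDL, sham, from high to low. The share of all genes with this order was not counted. The first principal component, with 58.3% of the variance over all genes, also placed norUDCA-fed CBDL between the other groups. It was 26.1 to 57 in CBDL, -6.63 to 0.523 in norUDCA-fed CBDL and -42.2 to -34.1 in sham. Of the 9, 2 fell in norUDCA-fed CBDL against CBDL, where 3.20% of all genes were called lower and 3.61% higher. The arrays did not overlap for 7 of 9 genes (lower in norUDCA-fed CBDL for 12.6% of all genes), and 7 of 9 had an unadjusted p under 0.05 (19.3% of all genes in either direction). All 9 differences were below 0, as were 50.7% of those of all genes, a share that includes genes that did not rise in CBDL. Against sham, 2 rose in norUDCA-fed CBDL, where 1.82% of all genes were called higher and 1.37% lower, and the arrays of 6 did not overlap (higher for 8.96% of all genes). The mean in norUDCA-fed CBDL lay 28.7% of the way from sham to CBDL for Nfkb2, 29.2% for Tnfaip3, 39% for Relb, 40.4% for Tnfaip2, 48.9% for Icam1, 55.7% for Bcl3, 60.4% for Rel, 65% for Birc3 and 71.9% for Nfkbia. These shares are descriptions, and differences among them were not tested. Both comparisons with CBDL use the same 3 CBDL arrays, and both comparisons with sham the same 3 sham arrays, so their values are not independent.

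In both comparisons of norUDCA-fed CBDL, calls were lost or gained when 1 array was left out, which also leaves fewer degrees of freedom. Relb lost its call against CBDL without norUDCA_CBDL_172 (adjusted p = 0.0641), norUDCA_CBDL_175 (0.109), norUDCA_CBDL_179 (0.0774), CBDL_164 (0.101) or CBDL_165 (0.0735). Tnfaip3 lost it without any of these 5 (0.0559 to 0.158), without sham_158 (0.0575) or without sham_160 (0.0659). The sham arrays bear on it through the shared estimate of spread and the adjustment over all genes. Against sham, Rel lost its call without any 1 array other than CBDL_165 and CBDL_170 (0.056 to 0.135). Nfkbia lost it without any 1 array other than norUDCA_CBDL_175, CBDL_165 and CBDL_170 (0.0527 to 0.137). Birc3 gained a call against sham without CBDL_165 (0.0356) or CBDL_170 (0.0338). The number of the 9 genes called without 1 array ranged between 0 and 3 in each of these comparisons. Without sham_159 and CBDL_165 together, Icam1 alone was called against CBDL (0.0331), and Relb (0.0692) and Tnfaip3 (0.1) lost their calls. In the same fit Birc3 (0.0394) and Icam1 (0.0197) were called against sham, and Rel (0.0952) and Nfkbia (0.11) lost their calls. The direction of all 27 differences stayed the same in every fit.

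Within the groups, the genes shared some of their spread. In sham, sham_159 was the highest of 3 for 6 of 9 genes and the lowest for none. Its median deviation from the sham means was 0.21, against -0.10 and -0.08 for the other sham arrays. In CBDL, CBDL_170 was the lowest for 7 of 9 genes and the highest for Rel and Icam1. In norUDCA-fed CBDL, norUDCA_CBDL_175 was the lowest for 6 of 9 genes. The median over all genes was also the highest of its group in sham_159 (6.37, against 6.28 and 6.24). It was the lowest of its group in norUDCA_CBDL_175 (6.30, against 6.34 and 6.38), while that of CBDL_170 (6.40) lay between 6.39 and 6.43. The part of such shifts of whole arrays in the spread of the 9 genes was not tested.

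**Figure D4:**
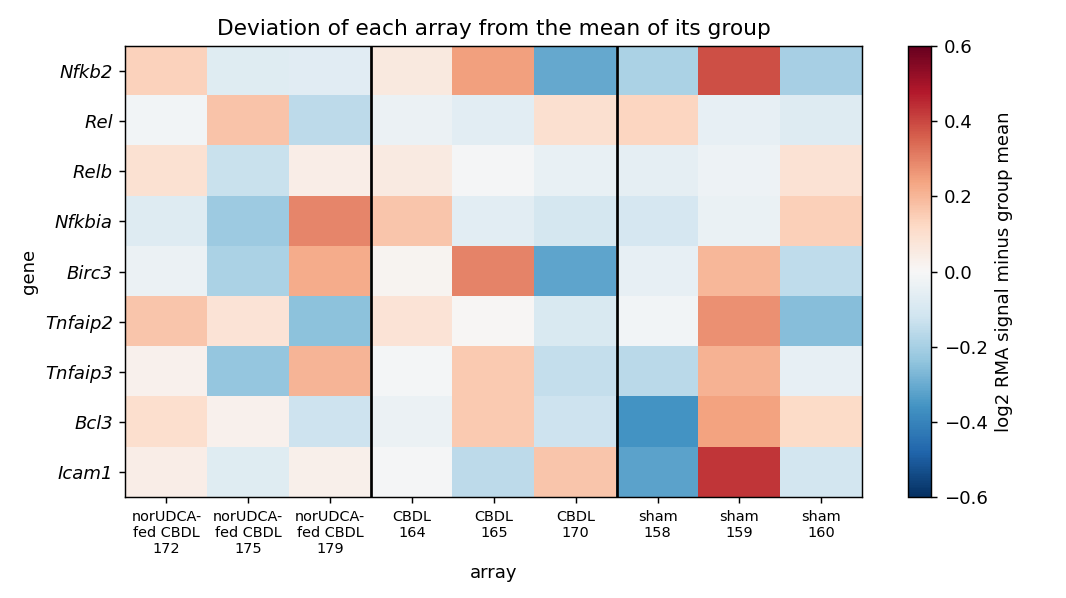
Log2 RMA signal of each of 9 genes on each array minus the mean of the array's group; red is above and blue below that mean, and vertical lines part the groups. Sham_159 is above its group mean for 6 of 9 genes and CBDL_170 is above its group mean for 2.

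The genes whose signals over the 9 arrays most resembled the mean standardized profile of the 9 genes were Litaf (Pearson r = 0.994), Lxn (0.991), Lilra5 (0.99), Rpl19 (0.99) and Vcl (0.989). Litaf was named for its induction by lipopolysaccharide and its link to TNF. Its mean signal was 7.29 in norUDCA-fed CBDL, 7.96 in CBDL and 6.77 in sham. Rpl19 encodes a ribosomal protein with many pseudogenes, whose copies the probes may share. The 9 points fall into the 3 groups and share their arrays, so these values describe likeness of pattern only.

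Of 20 measured genes for adaptors, kinases and the p65 subunit, 5 rose, 0 fell and 15 did not pass in CBDL against sham, with a median difference of 0.10. Rela, which encodes p65, the main partner of p50, had signals of 9.98, 9.86 and 9.99 in norUDCA-fed CBDL, 10.33, 10.53 and 10.36 in CBDL, and 9.73, 9.84 and 9.65 in sham. CBDL lay above both other groups, and norUDCA-fed CBDL lay just above sham. Rela rose by 0.67 in CBDL against sham (SE 0.10, adjusted p = 0.00112). Map3k8, a kinase upstream of ERK that p105 holds in check, rose by 1.02 (adjusted p = 0.00162), Ikbke by 0.70 (adjusted p = 0.0137), the adaptor gene Myd88 by 0.35 (adjusted p = 0.0215) and Map3k14, the kinase NIK of the non-canonical branch, by 0.42 (adjusted p = 0.0311). Among the IKK complex, the kinase gene Ikbkb differed by 0.12 (adjusted p = 0.455) and the scaffold gene Ikbkg by -0.07 (adjusted p = 0.666), and Chuk was not analysed here. Ikbke lost its call without sham_158 (0.0527) or sham_160 (0.0514), Myd88 without CBDL_164 (0.0746) or sham_160 (0.0717), and Map3k14 without CBDL_164 (0.0789), CBDL_165 (0.097) or sham_160 (0.097), so that 2 genes of the list rose without sham_160. Fed with norUDCA, 2 of the 20 fell against CBDL, Rela by 0.46 (adjusted p = 0.0257) and Myd88 by 0.37 (adjusted p = 0.0413). Both calls ended without any 1 of the norUDCA-fed CBDL arrays, CBDL_164 or CBDL_165 (up to 0.101 for Rela and 0.136 for Myd88), and that of Myd88 also without sham_158 or sham_160 (0.0631 and 0.0524). Between norUDCA-fed CBDL and sham, limma called 0 of the 20. Without sham_159 and CBDL_165 together, 4 rose in CBDL (Rela, Map3k8, Ikbke and Myd88) and 0 were called in either comparison of norUDCA-fed CBDL.

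Of 20 further IkB proteins and negative regulators, 5 rose, 1 fell and 14 did not pass in CBDL against sham (median 0.15). Nfkbiz, which encodes the atypical IkB protein IkB-zeta and is itself induced through Toll-like and interleukin 1 receptors, had signals of 7.58, 7.47 and 7.67 in norUDCA-fed CBDL, 8.32, 8.65 and 8.30 in CBDL, and 6.49, 6.76 and 6.60 in sham. The groups were clearly apart. Nfkbiz rose by 1.81 in CBDL against sham (SE 0.13, adjusted p = 2.98e-05), fell by 0.85 in norUDCA-fed CBDL against CBDL (adjusted p = 0.00827) and rose by 0.96 in norUDCA-fed CBDL against sham (adjusted p = 0.00549). These 3 calls held without any 1 array. Nfkbie, which encodes IkB-epsilon, rose by 0.92 in CBDL (adjusted p = 0.000536) and fell by 0.70 in norUDCA-fed CBDL against CBDL (adjusted p = 0.0124), a call that ended without norUDCA_CBDL_172 (0.0502), norUDCA_CBDL_175 (0.0586) or CBDL_164 (0.0531). Tnip2, a partner of A20, rose by 0.69 in CBDL (adjusted p = 0.00216), and the gene that fell was Rnf11, part of an A20 complex, at -0.65 (adjusted p = 0.0068). In norUDCA-fed CBDL, Nfkbiz and Nfkbie were the 2 of 20 that fell against CBDL, and Nfkbiz was the 1 called against sham. Nlrc5 joined them as the third that fell against CBDL without sham_159 and CBDL_165 together, where the counts against sham were the same.

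Of 21 receptors and ligands upstream, 12 rose, 0 fell and 9 did not pass in CBDL against sham (median 0.63). Cd14, 1 of the 21, is also counted among the macrophage and myeloid markers described below. The lipopolysaccharide co-receptor gene Cd14 rose by 2.34 (adjusted p = 4.95e-05), Tnfsf13b, which encodes the B cell factor BAFF, by 1.76 (adjusted p = 0.00025), Tnfrsf12a, the receptor for TWEAK, by 1.50 (adjusted p = 0.000436), Il1r1, the interleukin 1 receptor, by 1.46 (adjusted p = 5.26e-05) and Tnf by 0.96 (adjusted p = 0.000192). Of the 21, 5 fell in norUDCA-fed CBDL against CBDL, Cd14 by 1.07, Il1r1 by 0.78, Tnfrsf12a by 0.82, Tlr2 by 0.65 and Tnf by 0.44 (adjusted p between 0.00883 and 0.0431). Without norUDCA_CBDL_175 only Il1r1 of these kept its call, and without any 1 array the number that fell lay between 1 and 6. Against sham, 4 of 21 rose in norUDCA-fed CBDL, a number that was 1 without norUDCA_CBDL_179. In that comparison 7 rose without sham_159 and CBDL_165 together, with 6 that fell in norUDCA-fed CBDL against CBDL and 10 that rose in CBDL against sham.

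In CBDL against sham, 16 of 36 other genes known as targets of the factors rose and 1 fell, and 19 did not pass (median 0.66). The siderophore-binding protein gene Lcn2 rose by 4.65 (adjusted p = 6.27e-06), the adhesion molecule gene Vcam1 by 2.41, the chemokine gene Cxcl1 by 2.08, the urokinase receptor gene Plaur by 1.71 and the macrophage growth factor gene Csf1 by 1.38 (adjusted p of these 4 between 2.52e-05 and 8.41e-05). The gene that fell was Sod2, the mitochondrial superoxide dismutase, at -0.93 (adjusted p = 0.00144), and it was named after its values were seen. In norUDCA-fed CBDL against CBDL, 10 of 36 fell and 1, again Sod2, rose (0.64, adjusted p = 0.0324), a call that ended without any 1 array other than CBDL_170 and sham_159. Csf1 fell by 0.94, Plaur by 0.98 (adjusted p = 0.00794 and 0.00815), Cxcl16 by 0.58, Ier3 by 0.84 and Vcam1 by 0.78 (adjusted p between 0.0129 and 0.0192). Csf1 and Plaur kept that call without any 1 array. Without norUDCA_CBDL_172, norUDCA_CBDL_175 or CBDL_164, Cxcl16, Ier3 and Vcam1 lost theirs (adjusted p between 0.0518 and 0.0748), Vcam1 also without norUDCA_CBDL_179 (0.0607), and 2 of 36 fell without norUDCA_CBDL_175 or without CBDL_164. Against sham, 7 of 36 rose and 0 fell in norUDCA-fed CBDL, with 2 rising without norUDCA_CBDL_172 or without norUDCA_CBDL_179. Lcn2 in norUDCA-fed CBDL differed by -0.97 from CBDL (adjusted p = 0.0232) and by 3.69 from sham (adjusted p = 6.14e-05). Its call against CBDL ended without any 1 norUDCA-fed CBDL array, CBDL_164 or CBDL_165 (0.0594 to 0.0974). Without sham_159 and CBDL_165 together, 18 of 36 rose and 1 fell in CBDL, and in norUDCA-fed CBDL 7 fell and 0 rose against CBDL and 6 rose against sham.

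Markers of other cell types were measured on the same arrays. All 20 macrophage and myeloid markers rose in CBDL against sham (median 2.15), 17 of 20 fell in norUDCA-fed CBDL against CBDL (median -1.04) and 14 of 20 rose in norUDCA-fed CBDL against sham (median 1.02). Their mean signal lay between 7.75 and 7.80 in norUDCA-fed CBDL, 8.35 and 9.07 in CBDL, and 6.74 and 7.03 in sham. Of the arrays that stood out within their groups for the NF-kB genes, norUDCA_CBDL_175 had neither the lowest nor the highest myeloid mean of its group (7.79), CBDL_170 had the lowest (8.35) and sham_159 the highest (7.03). Without norUDCA_CBDL_175, 3 of 20 fell against CBDL, and without norUDCA_CBDL_179, 3 of 20 rose against sham. Among those that lost their call without norUDCA_CBDL_175, Laptm5, C1qc, Itgam, Fcgr1 and Cd14 still differed by -0.62 to -1.04 (adjusted p between 0.0512 and 0.0717). Calls over all genes also varied without 1 array, from 278 to 2043 against CBDL and from 156 to 822 against sham. Without sham_159 and CBDL_165 together, 19 of 20 rose in CBDL, and in norUDCA-fed CBDL 13 fell against CBDL and 12 rose against sham. Log2 array signals have no 0, and no marker list could be shown to be absent. Of 11 neutrophil markers, 3 rose in CBDL, namely Csf3r, Retnlg and Cxcr2 (Csf3r alone without CBDL_165, sham_158, sham_160 or both sham_159 and CBDL_165) and limma called 0 in either comparison of norUDCA-fed CBDL, with mean signals of 4.72 to 4.94 in norUDCA-fed CBDL, 4.82 to 5.13 in CBDL and 4.67 to 4.86 in sham. These markers were dim. By mean signal, Csf3r, Cxcr2 and Retnlg stood at percentiles 50.3, 41.3 and 18.5 of all genes, and the others at 14.1 to 33.9. Of 14 lymphocyte markers, 0 rose and Cd79a alone fell in CBDL (means of 5.18 to 5.29 in norUDCA-fed CBDL, 4.91 to 5.60 in CBDL and 5.39 to 5.46 in sham). Cd79a also fell in norUDCA-fed CBDL against sham (difference -0.58, adjusted p = 0.0425), a call that ended without any 1 array other than CBDL_165 and CBDL_170 and without both sham_159 and CBDL_165. Of 12 endothelial markers, 0 rose and Kdr alone fell in CBDL against sham (difference -0.90, adjusted p = 0.000872), while 4 (Kdr, Flt1, Tek and Ehd3) fell without CBDL_170, and Emcn rose without sham_159, alone or with CBDL_165 left out too. Kdr rose in norUDCA-fed CBDL against CBDL (difference 0.60, adjusted p = 0.0253). That call ended without any 1 norUDCA-fed CBDL array, CBDL_164 or CBDL_165 (0.0761 to 0.0965), and Flt1 and Tek rose beside Kdr without CBDL_170. Of 13 kidney epithelial markers, 7 fell in CBDL against sham and 5 (Slc34a1, Lrp2, Slc5a2, Slc22a6 and Slc12a3) rose in norUDCA-fed CBDL against CBDL. The phosphate transporter gene Slc34a1 differed by -0.99 in CBDL against sham (adjusted p = 0.00101) and by 0.71 in norUDCA-fed CBDL against CBDL (adjusted p = 0.0208). None of the 13 rose against CBDL without CBDL_164 or without any 1 norUDCA-fed CBDL array. Without sham_159 and CBDL_165 together, 3 (Slc34a1, Lrp2 and Slc5a2) rose against CBDL, and in CBDL against sham 5 fell and Umod rose. The part of these cell type markers in the changes of the NF-kB genes was not tested.

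**Figure D5:**
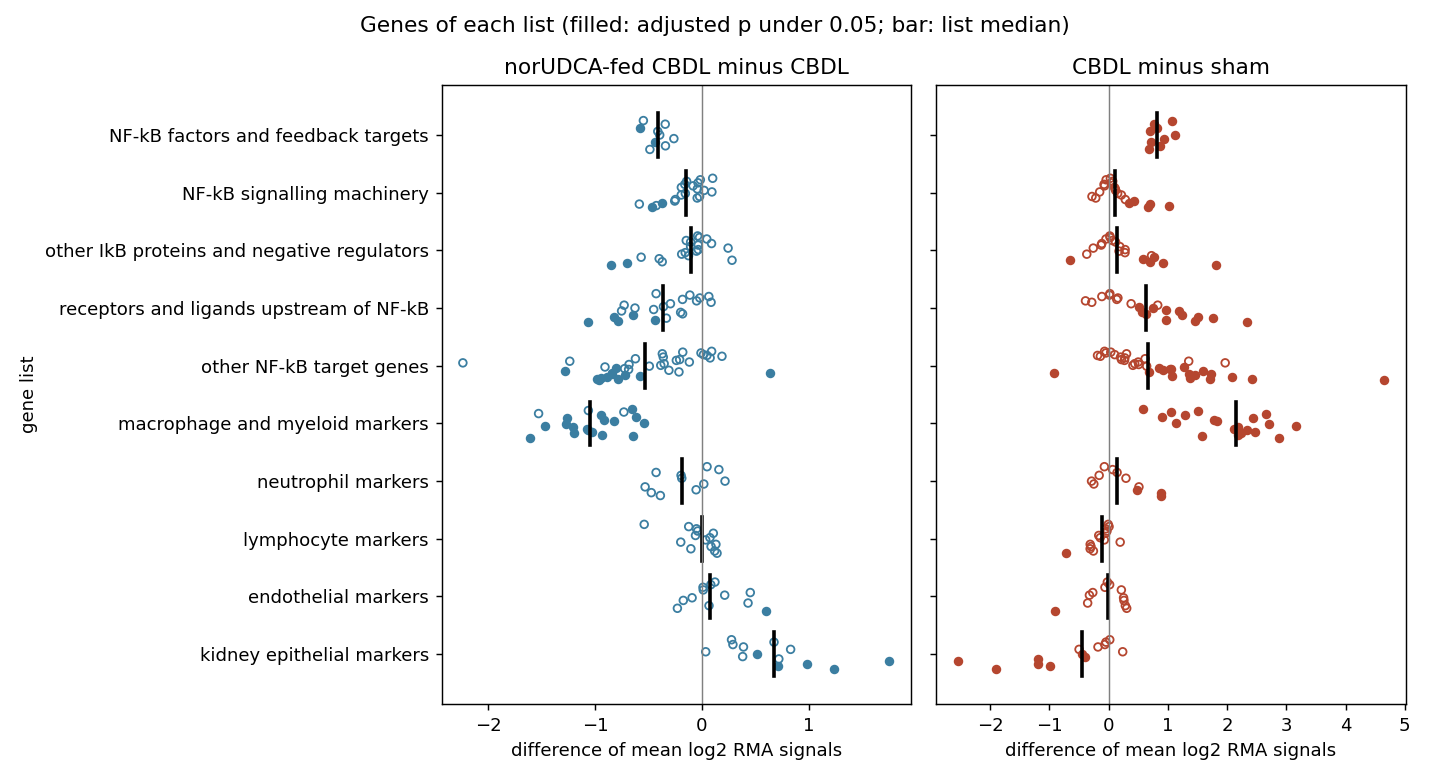
Differences of group means on the log2 scale for the 9 NF-kB factors and feedback targets and for genes of 9 further lists, in norUDCA-fed CBDL minus CBDL (left) and CBDL minus sham (right). Each point is a gene, filled where it passed the threshold, and black bars are list medians; the 9 genes lie between -0.58 and -0.26 on the left and between 0.68 and 1.12 on the right.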

How the data were processed

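The authors made 1 log2 signal per transcript cluster and array with Partek 6.6 and RMA, according to the submitters' processing notes, and deposited these values. The RNA came from TRIzol extraction and was biotin-labelled with an Affymetrix whole-transcript kit, per the labels' protocols. The sources used here name no genome build, filter or batch. Of 41345 rows, 23521 carry 1 gene symbol, 1814 several and 16010 none. The row with the highest mean over 9 arrays was kept per gene, leaving 22180 genes, 21994 of them found in the gene table. Low signal was no ground for leaving out a gene.

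Groups were compared with limma 3.58.1 in R 4.3.3 (1 mean per group, 9 arrays, 6 residual and 3.77 prior degrees of freedom, two-sided). The fit was tested on simulated data with independent normal noise, which cannot check the effect of outlying arrays or of genes that vary together. The genes, lists and comparisons were chosen with earlier results of these data known. Named genes were the listed 10, the core kinases, up to 5 per list with the lowest p in CBDL against sham, up to 5 per list called in norUDCA-fed CBDL against CBDL, and the 5 most alike in profile; others were named after their values were seen. Motifs were searched on both strands.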

Additional observations from a re-analysis of the deposited data

How the results depend on the processing

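The 9 genes were recomputed under 18 other settings, 17 planned and 1 added after seeing the data (without sham_159 and CBDL_165), and none of 486 recomputed differences changed direction. In CBDL against sham, the 9 genes called became 8 to 9 without 1 array, and Nfkb2 also lost its call with variances not moderated (adjusted p = 0.0849) and with only the 6 arrays compared (0.0659). In norUDCA-fed CBDL against CBDL, the 2 genes called became 0 to 3 without 1 array, 0 with variances not moderated, 1 (Icam1) with only the 6 arrays compared, 1 with array medians centred and 1 without sham_159 and CBDL_165. Relb lost its call with quantile normalization (0.0508), array medians centred (0.0502), variances not moderated (0.0642) and the 6 arrays (0.0527), and Tnfaip3 with variances not moderated (0.127) and the 6 arrays (0.0696), while Icam1 gained one in 5 of 18 settings, among them array weights (0.0284), the 6 arrays (0.0457) and quantile normalization (0.0474). In norUDCA-fed CBDL against sham, the 2 became 0 to 3 without 1 array, 5 with estimated array weights, 0 with variances not moderated and 1 with only the 6 arrays compared. Rel lost its call there with quantile normalization (0.0707), medians centred (0.0639), variances not moderated (0.0894) and the 6 arrays (0.0659), and Nfkbia with variances not moderated (0.127) and the 6 arrays (0.0639), while Birc3 gained one in 9 of 18 settings (lowest adjusted p = 0.00723). Over all genes, CBDL against sham gave 3794 to 4604 calls without 1 array against 4844. The 1509 calls of norUDCA-fed CBDL against CBDL became 278 to 2043 without 1 array, 25 with variances not moderated, 912 with only the 6 arrays compared and 749 without sham_159 and CBDL_165. The 706 calls of norUDCA-fed CBDL against sham became 156 to 822 without 1 array, 1638 with estimated array weights and 169 with variances not moderated. Fewer arrays or unshared variances leave fewer degrees of freedom by construction; the cause of the other shifts was not tested. No paired analysis was possible because the groups share no replicate numbers.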
